A study of Mus musculus with 24 samples.

Results

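The comparison set ItgA6+ keratinocytes of D2 back skin after transient activation against ItgA6+ keratinocytes of wild-type neonatal back skin. It rests on 6 of the 24 Affymetrix arrays of the series, 3 arrays per group, and on all 45037 probe sets that are not controls. The D2 transient arrays carry the genotype label D2, and the labels place their skin in anagen, the growth phase of the hair cycle. The WT neonatal arrays carry the genotype label wildtype. All mice had a mixed C57BL/6 and CBA background, and each array holds the RNA of 1 numbered mouse, amplified before labelling. Both other epidermal groups, D2 with sustained activation (ectopic follicles) and WT telogen (the resting phase), also have 3 arrays each and are given for their levels. The ages, the sex and the agent and schedule of activation are not given in the labels. As background, D2 is a transgenic mouse line in which a stabilised beta-catenin is fused to the ligand-binding part of the estrogen receptor under a keratin 14 promoter, so that a tamoxifen-type drug activates it in basal keratinocytes. Genotype, age and activation differ together between the groups and cannot be told apart.

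Newborn skin grows its first coat: keratinocytes of the epidermis and of the follicles divide, and the interfollicular epidermis stratifies and makes its barrier. Anagen in older skin rebuilds an existing follicle from stem cells of the bulge and hair germ, and Wnt signals through beta-catenin are known to start it. Integrin alpha 6, the antigen of the sort, sits on the basal side of keratinocytes in both settings, and also on some endothelial, Schwann and immune cells.

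Esr1, which encodes the receptor that lends its ligand-binding part to the D2 transgene, was at 10.01, 9.86 and 8.86 in D2 transient arrays and 1.46, 3.56 and 2.01 in WT neonatal arrays (log2 units, as are all levels below). The difference, D2 transient minus WT neonatal, was 7.23 ± 0.57, adjusted p = 0.000541 (± standard error of the limma fit, n = 3 arrays per group, Benjamini-Hochberg adjustment over all probe sets; the same order, error and adjustment hold throughout). All D2 transient arrays were above all WT neonatal arrays, D2 sustained arrays were at 8.76, 9.29 and 8.44 and WT telogen arrays at 5.48, 6.27 and 5.05. The WT neonatal arrays averaged below the 25th percentile of their group's probe sets, so the size of the Esr1 difference is imprecise. Which part of the receptor the probe set reads was not determined, and the endogenous gene is not told apart from the fusion. Itga6 itself was at 9.56, 9.90 and 9.39 in D2 transient arrays and 10.23, 9.90 and 10.16 in WT neonatal arrays (-0.48 ± 0.22, adjusted p = 0.22), and the difference did not pass the threshold. The basal keratinocyte genes Krt5 (12.03 ± 0.16 in D2 transient and 12.17 ± 0.16 in WT neonatal arrays, mean ± SD) and Trp63 (11.45 ± 0.13 and 11.50 ± 0.09 in the same order of groups) did not pass either. Both sorts labelled as keratinocytes carried these defining genes at high levels. Ctnnb1, Krt14 and Pdgfra have no named probe set here.

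At an adjusted p under 0.05, 2676 probe sets were called (5.94% of 45037), of which 1792 were higher in D2 transient arrays (3.98%) and 884 lower (1.96%). The balance of directions depends on the scaling. Higher calls were 67.0% of all calls on the deposited values, 51.4% after quantile normalization and 30.0% with each array centred on its median, and the median difference over all probe sets was 0.28, -0.01 and -0.17 under those 3 scalings. D2 transient replicate 4 stands apart, with a 25th percentile of 4.14 against 3.19 and 3.18 for its group mates and correlations with them of 0.82 over all probe sets, while those 2 correlate at 0.90. Without it 1836 probe sets were called, and of the named genes 437 were higher (9.58%) and 340 lower (7.46%). The calls use a spread pooled over all 12 epidermal arrays. With only the 6 arrays compared, 6 probe sets were called by limma (8113 had an unadjusted p under 0.05), and 3 arrays per group limit every estimate.

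Gene names come from the authors' deposited lists of genes they found regulated in these same samples, so the share of named genes called is high and is not independent evidence. Of 4560 named genes 1020 were called (22.4%), 585 higher (12.8%) and 435 lower (9.54%). For each of these 1020 the arrays of the groups do not overlap, which holds for 50.1% of all named genes. After quantile normalization 467 were higher (10.2%) and 438 lower (9.61%), and with arrays centred on their median 269 were higher (5.9%) and 634 lower (13.9%). The median difference of all named genes was 0.12. Counts of list members are to be read against these shares. For 131 of the called genes the lower group averaged below the 25th percentile of that group's probe sets, where a difference has a direction but an imprecise size.

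**Figure D1:**
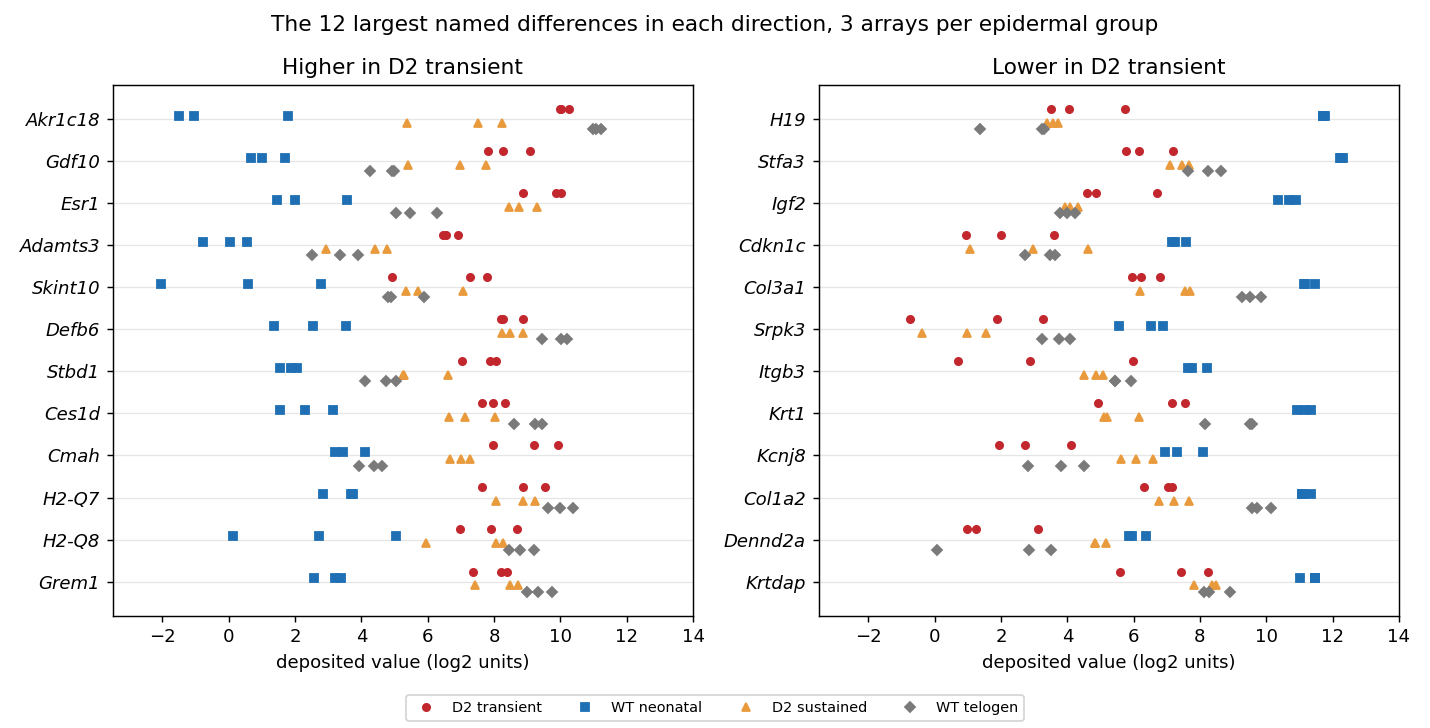
Each row is a named gene, and each point is the deposited value of 1 array in log2 units (horizontal axis) for D2 transient, WT neonatal, D2 sustained and WT telogen epidermis. Shown are the 12 largest called differences in each direction whose arrays do not overlap and whose higher group averages at least 6. The 3 WT neonatal points of Akr1c18 lie near the floor of the scale, so its place at the head of the genes higher in D2 transient arrays is not a measured rank. Those of Gdf10, Adamts3, Stbd1, Skint10 and Ces1d also lie below the 25th percentiles of their arrays, and their sizes are imprecise. Those of Esr1 and Defb6 average below the 25th percentile of their group. So do the D2 transient points of Cdkn1c and Kcnj8, and the sizes for these genes are imprecise too.

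Akr1c18, an aldo-keto reductase that inactivates progesterone, was at 10.26, 10.03 and 9.98 in D2 transient arrays and -1.06, -1.49 and 1.78 in WT neonatal arrays (10.35 ± 0.87, adjusted p = 0.000581). WT telogen arrays, at 10.99, 11.22 and 11.07, were higher still, and of the 4 epidermal groups WT neonatal alone was near the floor of the scale, so the size of this difference is imprecise. Gdf10, a ligand of the TGF-beta superfamily also called BMP3b, was at 7.83, 9.07 and 8.27 in D2 transient arrays and 1.70, 0.66 and 1.01 in WT neonatal arrays (7.27 ± 0.58, adjusted p = 0.000581), and here D2 transient arrays were also above the WT telogen arrays (4.98, 4.93 and 4.27). Adamts3, a protease that cuts procollagen and takes part in VEGF-C processing, was at 6.56, 6.90 and 6.45 in D2 transient arrays and 0.03, -0.79 and 0.55 in WT neonatal arrays (6.71 ± 0.54, adjusted p = 0.000581). Stbd1, a glycogen-binding protein, was at 8.06, 7.86 and 7.03 in D2 transient arrays and 2.05, 1.53 and 1.86 in WT neonatal arrays (5.84 ± 0.44, adjusted p = 0.000541). Cmah, the enzyme that hydroxylates sialic acid, was at 9.94, 9.20 and 7.98 in D2 transient arrays and 3.22, 4.10 and 3.43 in WT neonatal arrays (5.46 ± 0.47, adjusted p = 0.000588). For Adamts3, Stbd1 and Cmah every D2 transient array was above every array of the 3 other epidermal groups. Skint10, of a family of immunoglobulin-like proteins of skin and thymus, differed by 6.23 (adjusted p = 0.015) with a wide spread, at 4.92, 7.79 and 7.27 in D2 transient and 0.57, -2.05 and 2.78 in WT neonatal arrays. The WT neonatal values of Gdf10, Adamts3, Stbd1 and Skint10 were below the 25th percentiles of their arrays (2.46, 2.76 and 3.27). The sizes of these differences are imprecise too.

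Among the genes lower in D2 transient arrays, Stfa3, a cysteine protease inhibitor of the stefin A family, was at 5.76, 6.16 and 7.18 in D2 transient arrays and 12.22, 12.24 and 12.31 in WT neonatal arrays (-5.89 ± 0.39, adjusted p = 0.000484). Stefin A genes are near-identical copies, so its probe set may also read other members. WT telogen arrays were at 8.64, 8.24 and 7.64 and D2 sustained arrays at 7.66, 7.09 and 7.44, and the WT neonatal arrays were above all 9 others. Srpk3, an SR protein kinase known from muscle, differed by -4.85 (adjusted p = 0.016) and Dennd2a, an activator of a Rab protein, by -4.27 (adjusted p = 0.0184). Srpk3 missed the threshold without neonatal replicate 2 (adjusted p = 0.0595) and Dennd2a without neonatal replicate 2 or 3 or transient replicate 2 or 4 (adjusted p = 0.052 to 0.0655).

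Many genes of mitosis were lower in D2 transient arrays. Of 75 named members of the cell cycle and mitosis list 35 were called lower (background 9.54% of named genes) and 0 higher, with a median of -1.38. The mitotic kinesin Kif20a was at 8.29, 7.27 and 8.25 in D2 transient arrays and 9.91, 10.23 and 9.83 in WT neonatal arrays (-2.06 ± 0.31, adjusted p = 0.00682). The mitotic cyclin Ccna2 was at 8.73, 7.42 and 8.35 in D2 transient arrays and 10.06, 10.34 and 9.66 in WT neonatal arrays (-1.85 ± 0.36, adjusted p = 0.0193). Birc5 (survivin), a subunit of the chromosomal passenger complex, was at 7.15, 5.84 and 6.06 in D2 transient arrays and 8.97, 7.95 and 8.51 in WT neonatal arrays (-2.13 ± 0.41, adjusted p = 0.0179). The groups did not overlap in any of these genes, and WT telogen arrays were close to D2 transient arrays, at 7.78 ± 0.07 for Kif20a, 7.97 ± 0.22 for Ccna2 and 6.33 ± 0.37 for Birc5. Not all proliferation genes passed: Mki67 differed by -0.58 (adjusted p = 0.252), Foxm1, a mitotic transcription factor, by -2.97 (adjusted p = 0.0909) and the cyclin Ccnb1 by -1.63 (adjusted p = 0.0555). The spindle protein gene Troap and the centromere protein gene Cenpn had the largest called differences of the list (-3.73, adjusted p = 0.0361, and -2.86, adjusted p = 0.0201) at low levels in D2 transient arrays (0.80, -1.17 and 1.16 for Troap, 3.22, 2.56 and 1.08 for Cenpn). Troap missed the threshold without neonatal replicate 2 or 3 or transient replicate 2 or 3 (adjusted p = 0.0602 to 0.116), Cenpn without neonatal replicate 2 or 3 (adjusted p = 0.0603 to 0.0732), Birc5 without neonatal replicate 2 or transient replicate 3 (adjusted p = 0.055 to 0.0667) and Ccna2 without neonatal replicate 2 or 3 (adjusted p = 0.0644 to 0.0648).

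The cell cycle count depends on the arrays fitted. In place of 35 it was 6 without neonatal replicate 2, 10 without neonatal replicate 3 and 17 without transient replicate 3. Without the sustained arrays it was 23, and 13 without the telogen arrays. Calls over all probe sets also fell, to 1051 and 1189 without neonatal replicate 2 or 3. At an unadjusted p under 0.05 (limma) 63 members were lower in the main fit. That number was 56 without neonatal replicate 2, 57 without neonatal replicate 3, 53 without transient replicate 3 and 61 without the telogen or the sustained arrays. The called count was 32 after quantile normalization, 52 (background 13.9%) with arrays centred on their median and 28 without D2 transient replicate 4. All but 2 of the 75 members had a negative difference. The DNA replication list had 45 named members, 11 called lower (background 9.54%), 0 higher and a median of -0.92. Its lower count was 6 after quantile normalization (background 9.61%) and 22 with arrays centred on their median (background 13.9%). The largest called differences of this list were in Chaf1b, a histone chaperone of replication (-1.61, adjusted p = 0.0285), and Mcm2, of the replicative helicase (-1.55, adjusted p = 0.0179). Without neonatal replicate 2 or without neonatal replicate 3, limma called 0 of the replication genes, while 26 and 28 of them were lower at an unadjusted p under 0.05. Of 6 named cell cycle inhibitors 2 were called higher (background 12.8%) and 1 lower (background 9.54%), with a median of 0.45. Btg2, an antiproliferative gene induced by growth arrest, was at 8.28, 9.05 and 7.80 in D2 transient arrays and 6.44, 6.65 and 6.43 in WT neonatal arrays (1.87 ± 0.30, adjusted p = 0.00973). Trp53inp1, a target of p53, was higher (1.15 ± 0.19, adjusted p = 0.0106). Cdkn1c, the imprinted cyclin-dependent kinase inhibitor p57, went the other way, at 3.60, 1.99 and 0.94 in D2 transient arrays and 7.24, 7.57 and 7.15 in WT neonatal arrays (-5.15 ± 0.85, adjusted p = 0.0104). The D2 transient arrays of Cdkn1c averaged below the 25th percentile of their group, so the size of its difference is imprecise. With arrays centred on their median, Btg2 and Trp53inp1 lost their calls, and the median of the inhibitors was -0.01.

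The windows upstream of the start of Troap and Cenpn are shown because they lead the calls of their list and CCAAT boxes are known from mitotic promoters. Sequences are RefSeq's (GRCm38.p6), 250 bases up to the base before the start, 5′ to 3′ on the gene's strand, with capitals for motifs searched on both strands. These are the CCAAT box, the cell cycle homology region as TTTGAA or else as TTTAAA, the LEF/TCF core as CTTTGA, and the interferon-stimulated response element, which is GAAA followed after any 2 bases by a second GAAA. No 2 of these matches overlap in the windows printed.
Troap, chr15:99074723-99074972, plus strand: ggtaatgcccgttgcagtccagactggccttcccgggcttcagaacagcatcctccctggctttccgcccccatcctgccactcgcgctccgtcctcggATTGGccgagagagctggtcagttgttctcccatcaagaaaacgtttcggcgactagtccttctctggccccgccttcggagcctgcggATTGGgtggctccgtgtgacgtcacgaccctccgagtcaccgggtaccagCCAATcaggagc
Cenpn, chr8:116921490-116921739, plus strand: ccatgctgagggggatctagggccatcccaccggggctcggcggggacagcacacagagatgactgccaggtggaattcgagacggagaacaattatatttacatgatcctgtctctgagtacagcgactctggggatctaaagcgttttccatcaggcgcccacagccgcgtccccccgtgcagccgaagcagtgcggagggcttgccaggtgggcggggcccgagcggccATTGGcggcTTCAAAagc
Troap has 3 matches to CCAAT, and Cenpn has 1 beside 1 to TTTGAA. Of the 28 called cell cycle genes with a window in the table, 20 have CCAAT (71.4%), against 34.5% of all 27025 windows of that length, and 11 have TTTGAA (39.3% against 16.3%). Over all 61 named members with a window, called or not, 42 have CCAAT (68.9%) and 21 have TTTGAA (34.4%). TTTAAA was in 2 of the 28 (7.14% against 12.1%). A match is a description of letters and not a site of binding.

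Genes of the follicle's stem cells, germ and outer root sheath were more often higher than lower in D2 transient arrays. Of 26 named members 11 were called higher (background 12.8%) and 1 lower, with a median of 1.20. Krt6a, a keratin of the companion layer and of activated keratinocytes, was at 9.70, 8.58 and 7.38 in D2 transient arrays and 4.43, 4.53 and 4.15 in WT neonatal arrays (4.18 ± 0.49, adjusted p = 0.00239). Cd34, which marks the mouse bulge, was at 8.03, 8.77 and 7.37 in D2 transient arrays and 5.83, 4.82 and 5.19 in WT neonatal arrays (2.77 ± 0.47, adjusted p = 0.0111). Sox9, the transcription factor of outer root sheath and bulge, was at 9.89, 10.24 and 9.77 in D2 transient arrays and 8.46, 8.44 and 8.25 in WT neonatal arrays (1.59 ± 0.21, adjusted p = 0.00449). The groups lay apart in all 3 genes, and WT telogen arrays overlapped D2 transient arrays for Krt6a (8.49 ± 0.27) and were above them for Cd34 (9.33 ± 0.14). Fgf18, a bulge growth factor that prolongs telogen, was at 7.18, 7.23 and 7.79 in D2 transient arrays and 3.74, 3.80 and 4.31 in WT neonatal arrays (3.45 ± 0.43, adjusted p = 0.00342). Lgr5, the R-spondin receptor of bulge and germ, was at 8.01, 8.33 and 7.38 in D2 transient arrays and 6.14, 6.21 and 6.00 in WT neonatal arrays (1.79 ± 0.33, adjusted p = 0.0151), and missed the threshold without neonatal replicate 2 (adjusted p = 0.0505). Sfrp1, a Wnt antagonist of follicle keratinocytes, was higher (2.23 ± 0.24, adjusted p = 0.00166). The member that was lower, Lgr6, marks the isthmus above the bulge and was at 5.43, 6.35 and 5.43 in D2 transient arrays and 8.58, 8.13 and 8.34 in WT neonatal arrays (-2.62 ± 0.38, adjusted p = 0.0065). Without neonatal replicate 2 the list had 7 higher calls, and with arrays centred on their median 5 (background 5.9%). In bulk sorts, fewer cells of a type and less RNA per cell cannot be told apart.

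Krt17, a keratin of the outer root sheath, was at 10.49, 10.45 and 9.32 in D2 transient arrays and 10.36, 9.89 and 10.45 in WT neonatal arrays (-0.15, adjusted p = 0.811). Shh, the ligand of the hair matrix, differed by -0.50 (adjusted p = 0.674), its target Gli1 by -1.41 (adjusted p = 0.0762) and its receptor Ptch1 by -1.07 (adjusted p = 0.0596). Of 16 named Hedgehog genes only Sox9 and Sfrp1, both also in the follicle list, were called. Genes of the hair shaft and inner root sheath had 4 of 16 named members called higher (background 12.8%) and 0 lower, with a median of 0.87. Krtap8-1, a keratin-associated protein of the shaft, was at 7.74, 6.36 and 7.69 in D2 transient arrays and 4.83, 5.18 and 4.58 in WT neonatal arrays (2.40 ± 0.38, adjusted p = 0.00839), while WT telogen arrays were at -1.58, -1.02 and -1.63. Both D2 transient and WT neonatal arrays stood above telogen, and D2 transient arrays were the highest of these 3 groups. Krtap7-1, of the same class, was higher (2.67 ± 0.50, adjusted p = 0.0169), and so was Cux1, a homeodomain protein of the inner root sheath lineage (2.05 ± 0.39, adjusted p = 0.0171), whose other probe set went the opposite way, uncalled (-0.14). The inner root sheath keratins Krt25, Krt27 and Krt28 had differences of 1.01, 1.02 and 0.74 (adjusted p = 0.547, 0.334 and 0.382). Cux1 missed the threshold without neonatal replicate 2 (adjusted p = 0.063), and 2 of the 4 shaft genes were called without that array.

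**Figure D2:**
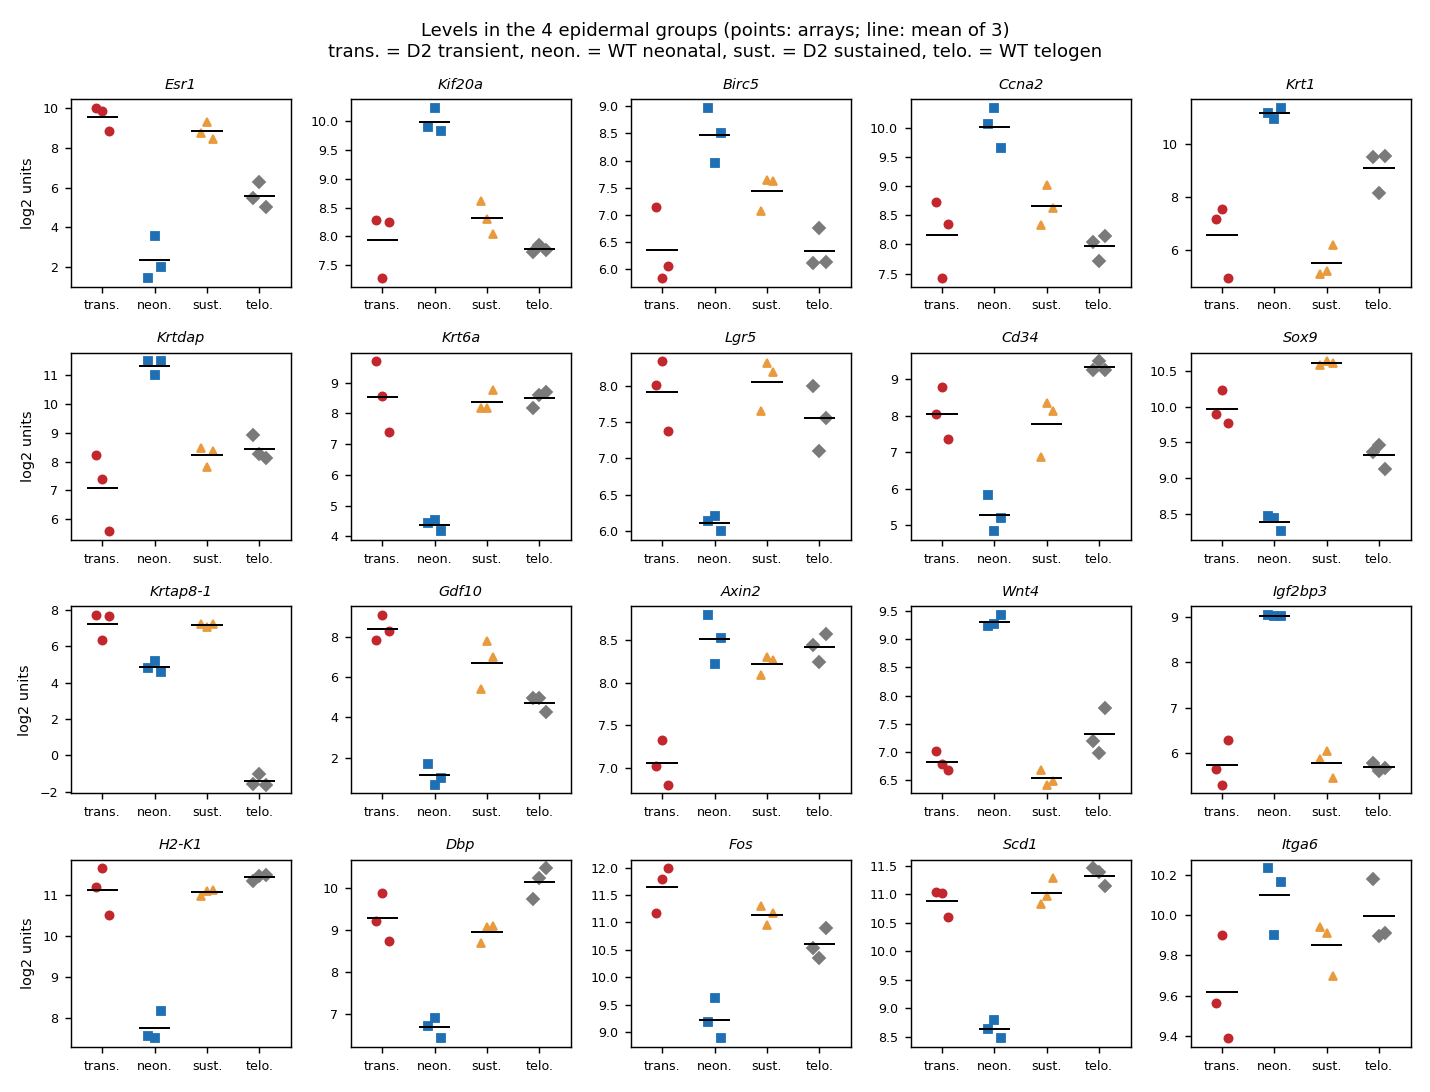
Each panel is 1 gene and each point 1 array, with the deposited value in log2 units on the vertical axis (ranges differ between panels and do not start at 0) and the mean of 3 arrays as a line; groups from left to right are D2 transient, WT neonatal, D2 sustained and WT telogen. Cell cycle genes stand highest in WT neonatal arrays, H2-K1, Dbp and Scd1 stand lowest there, and Krtap8-1 is near the floor in WT telogen arrays alone.

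Suprabasal genes were called in both directions, more often lower than higher. Of 23 named members 7 were called lower (background 9.54%) and 4 higher (background 12.8%), with a median of -0.63. After quantile normalization 9 were lower (background 9.61%) and 3 higher (background 10.2%). With arrays centred on their median 9 were lower (background 13.9%) and 1 higher (background 5.9%). Krt1, the keratin made when cells leave the basal layer, was at 7.16, 7.54 and 4.94 in D2 transient arrays and 11.17, 10.92 and 11.35 in WT neonatal arrays (-4.60 ± 0.66, adjusted p = 0.00602). Krtdap, a secreted protein of differentiating keratinocytes, was at 8.24, 7.41 and 5.57 in D2 transient arrays and 11.48, 11.01 and 11.48 in WT neonatal arrays (-4.25 ± 0.57, adjusted p = 0.0048). Krt10, the partner of Krt1, was at 9.64, 9.67 and 8.89 in D2 transient arrays and 11.13, 11.16 and 11.36 in WT neonatal arrays (-1.82 ± 0.30, adjusted p = 0.0107). The WT neonatal arrays were above the D2 transient arrays in each, and WT telogen arrays lay between for Krt1 (9.08 ± 0.80) and Krt10 (10.38 ± 0.39). Asprv1, a protease that processes profilaggrin, was lower (-2.49 ± 0.35, adjusted p = 0.00579). Lor, the main protein of the cornified envelope, had a difference of -1.65 with an adjusted p of 0.415. Against these, Calml3, a calmodulin-like protein of stratified epithelia, was at 7.88, 8.57 and 8.41 in D2 transient arrays and 3.88, 4.35 and 4.83 in WT neonatal arrays (3.93 ± 0.31, adjusted p = 0.000541). Its call held without any single array, whereas the list had 1 higher call without neonatal replicate 2 or 3 or transient replicate 2 or 3.

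Of 14 named interfollicular basal genes 3 were called higher (background 12.8%) and 1 lower (background 9.54%), with a median of 0.05. Both counts are small and near what these shares give. With arrays centred on their median 2 were higher (background 5.9%) and 3 lower (background 13.9%). Bnc1, a zinc finger protein of basal keratinocytes, was at 9.78, 9.75 and 9.57 in D2 transient arrays and 7.87, 8.12 and 7.71 in WT neonatal arrays (1.80 ± 0.23, adjusted p = 0.0035), above all arrays of WT telogen (8.31, 8.27 and 7.90). Ly6d, a surface protein of the Ly6 family, was the member that was lower (-1.94 ± 0.30, adjusted p = 0.0074). Among 14 named antimicrobial and stress genes 5 were called higher (background 12.8%) and 2, Stfa3 and the interleukin 1 receptor antagonist Il1rn, lower (background 9.54%). Defb6, a beta-defensin, was at 8.26, 8.87 and 8.21 in D2 transient arrays and 2.55, 1.37 and 3.55 in WT neonatal arrays (5.96 ± 0.49, adjusted p = 0.000581). Il33, a nuclear alarmin cytokine, was at 7.21, 7.68 and 7.80 in D2 transient arrays and 3.41, 3.65 and 5.31 in WT neonatal arrays (3.44 ± 0.53, adjusted p = 0.00791). For both, WT telogen arrays (9.88 ± 0.38 and 9.45 ± 0.38) were above D2 transient arrays. The WT neonatal arrays of Defb6 averaged below the 25th percentile of their group, so the size of its difference is imprecise.

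Wnt pathway genes were more often lower than higher in the D2 transient arrays. Of 53 named ligands, receptors, antagonists and targets 18 were called lower (background 9.54%) and 5 higher (background 12.8%), with a median of -0.76. Among ligands, Wnt4 was at 7.02, 6.79 and 6.67 in D2 transient arrays and 9.24, 9.27 and 9.44 in WT neonatal arrays (-2.49 ± 0.25, adjusted p = 0.00119). Wnt3 differed by -1.60 (adjusted p = 0.015), and Wnt9a was the ligand that was higher (2.82, adjusted p = 0.0264). Wnt16 differed by -3.89 (adjusted p = 0.0151) and Wnt7a by -3.37 (adjusted p = 0.0358), both at low levels in the D2 transient arrays (1.32, 1.25 and 3.76 for Wnt16, 2.45, 1.04 and 4.79 for Wnt7a). Among receptors and their partners, Fzd2 was higher (1.44 ± 0.21, adjusted p = 0.00677) and Lgr5, given above, was higher too, while Lgr6 was lower. Axin2, the feedback inhibitor that is read as a target of beta-catenin, was at 7.02, 7.33 and 6.80 in D2 transient arrays and 8.80, 8.22 and 8.52 in WT neonatal arrays (-1.46 ± 0.24, adjusted p = 0.01). WT telogen arrays had Axin2 at 8.44, 8.25 and 8.58 and D2 sustained arrays at 8.09, 8.30 and 8.26, so the D2 transient arrays were the lowest of the 4 groups. Apcdd1, a Wnt inhibitor and target, was also lower (-1.99 ± 0.24, adjusted p = 0.0029). Lef1, the transcription factor partner of beta-catenin, differed by -1.19 (adjusted p = 0.168).

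Sfrp2 and Nkd2, antagonists of the pathway, differed by -3.98 and -3.67 (adjusted p = 0.0233 and 0.0149), and both stood higher in the GFP+ dermal fibroblast sort of neonatal skin (11.39 ± 0.06 and 10.15 ± 0.38, 3 arrays) than in its keratinocyte sort (6.38 ± 0.57 and 8.46 ± 0.80). Of the 18 members that were lower, 8 stood higher in the neonatal dermal sort than in the neonatal epidermal one, Axin2 among them (9.04 ± 0.12 in dermal and 8.51 ± 0.29 in epidermal arrays); Wnt4 was not (5.62 ± 0.66). Of all 53 members 30 stood higher in the dermal sort (56.6%), against 48.7% of all named genes. Whether dermal RNA in the neonatal sort contributes to these differences was not tested. The count of lower members was 8 without neonatal replicate 2, 7 without neonatal replicate 3 and 10 without the telogen arrays. The count of higher members was 3 without neonatal replicate 2, neonatal replicate 4, the sustained arrays, the telogen arrays, transient replicate 2 or transient replicate 3. With arrays centred on their median it was 1 (background 5.9%). Wnt9a missed the threshold without neonatal replicate 3 or 4 or transient replicate 2 or 3 (adjusted p = 0.0566 to 0.072), Wnt16 without neonatal replicate 2 or 3 (adjusted p = 0.0512 to 0.0514), Wnt7a without neonatal replicate 2, 3 or 4 or transient replicate 2 or 3 (adjusted p = 0.0681 to 0.104), Wnt3 without neonatal replicate 3 (adjusted p = 0.0504), Sfrp2 without neonatal replicate 2 or 4 (adjusted p = 0.0522 to 0.0803) and Nkd2 without neonatal replicate 2 or 3 (adjusted p = 0.0538 to 0.0546).

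Genes of BMP and TGF-beta signalling moved both ways, with 7 of 31 named members called higher (background 12.8%), 4 lower (background 9.54%) and a median of -0.08. Beside Gdf10, the BMP antagonist Grem1 was at 7.35, 8.38 and 8.20 in D2 transient arrays and 2.56, 3.37 and 3.21 in WT neonatal arrays (4.93 ± 0.42, adjusted p = 0.000588). The ligand Bmp6 was at 6.47, 7.42 and 6.22 in D2 transient arrays and 3.55, 4.31 and 1.74 in WT neonatal arrays (3.51 ± 0.57, adjusted p = 0.00981). Id4, an inhibitor of differentiation that BMP signals induce, was at 10.48, 10.33 and 10.16 in D2 transient arrays and 7.94, 8.48 and 7.02 in WT neonatal arrays (2.51 ± 0.34, adjusted p = 0.00513), and D2 transient arrays were above WT telogen arrays as well (7.72, 8.04 and 7.91). Among those lower were the ligand Bmp7 (-1.88 ± 0.26, adjusted p = 0.00541) and the receptor Bmpr1b (-2.81 ± 0.53, adjusted p = 0.017). Bmpr1b missed the threshold without transient replicate 3 (adjusted p = 0.0535), and the lower count of the list was 2 without neonatal replicate 2 or neonatal replicate 3 and 1 without the telogen arrays. In the list of growth factors and receptor kinases 6 of 53 were called higher (background 12.8%) and 8 lower (background 9.54%). The higher count is close to its background. The lower count was 5 without neonatal replicate 2, neonatal replicate 3, neonatal replicate 4 or transient replicate 3. Pdgfc, a platelet-derived growth factor, was at 4.34, 5.07 and 5.55 in D2 transient arrays and 8.64, 8.03 and 8.84 in WT neonatal arrays (-3.52 ± 0.36, adjusted p = 0.00119). Fgf1, which acts on all FGF receptors, was higher (2.42 ± 0.26, adjusted p = 0.00166).

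Of 22 named imprinted growth genes 10 were called lower in the D2 transient arrays (background 9.54%), 0 higher and 12 were not called, with a median of -1.57. H19, an imprinted long RNA of fetal growth, was at 4.05, 3.50 and 5.72 in D2 transient arrays and 11.77, 11.71 and 11.70 in WT neonatal arrays (-7.30 ± 0.61, adjusted p = 0.000581). Igf2, the growth factor encoded beside it, was at 4.86, 4.59 and 6.71 in D2 transient arrays and 10.88, 10.68 and 10.36 in WT neonatal arrays (-5.25 ± 0.48, adjusted p = 0.000824). Peg3, a paternally expressed zinc finger gene, was at 7.15, 7.60 and 6.45 in D2 transient arrays and 10.83, 10.45 and 10.63 in WT neonatal arrays (-3.57 ± 0.35, adjusted p = 0.00115). The WT neonatal arrays stood alone: in WT telogen arrays H19 was at 3.24, 3.29 and 1.38 and Igf2 at 4.23, 3.77 and 3.99, below every D2 transient array. Igf2bp3, a fetal RNA-binding protein that binds Igf2 mRNA, was at 5.65, 5.29 and 6.27 in D2 transient arrays and 9.05, 9.02 and 9.02 in WT neonatal arrays (-3.29 ± 0.28, adjusted p = 0.000581). It belongs to the fetal growth list, of whose 27 named genes 8, H19 included, were called lower (background 9.54%) and 0 higher (median -1.16). Of the 10 imprinted genes that were lower, 7 stood higher in the neonatal dermal than in the neonatal epidermal sort; H19 was at 11.40 ± 0.07 in the dermal arrays and 11.72 ± 0.04 in the epidermal ones. Igf2bp3 was lower in the dermal sort (6.96 ± 0.14) than in the epidermal one (9.03 ± 0.02). Of all 22 imprinted members 19 stood higher in the dermal sort (86.4%), against 48.7% of all named genes. The part of dermal RNA in these differences was not tested. The imprinted count was 7 to 10 when any 1 array of the groups was left out, and the fetal count was 4 without neonatal replicate 2, neonatal replicate 3 or transient replicate 3 and 5 without the telogen arrays.

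**Figure D3:**
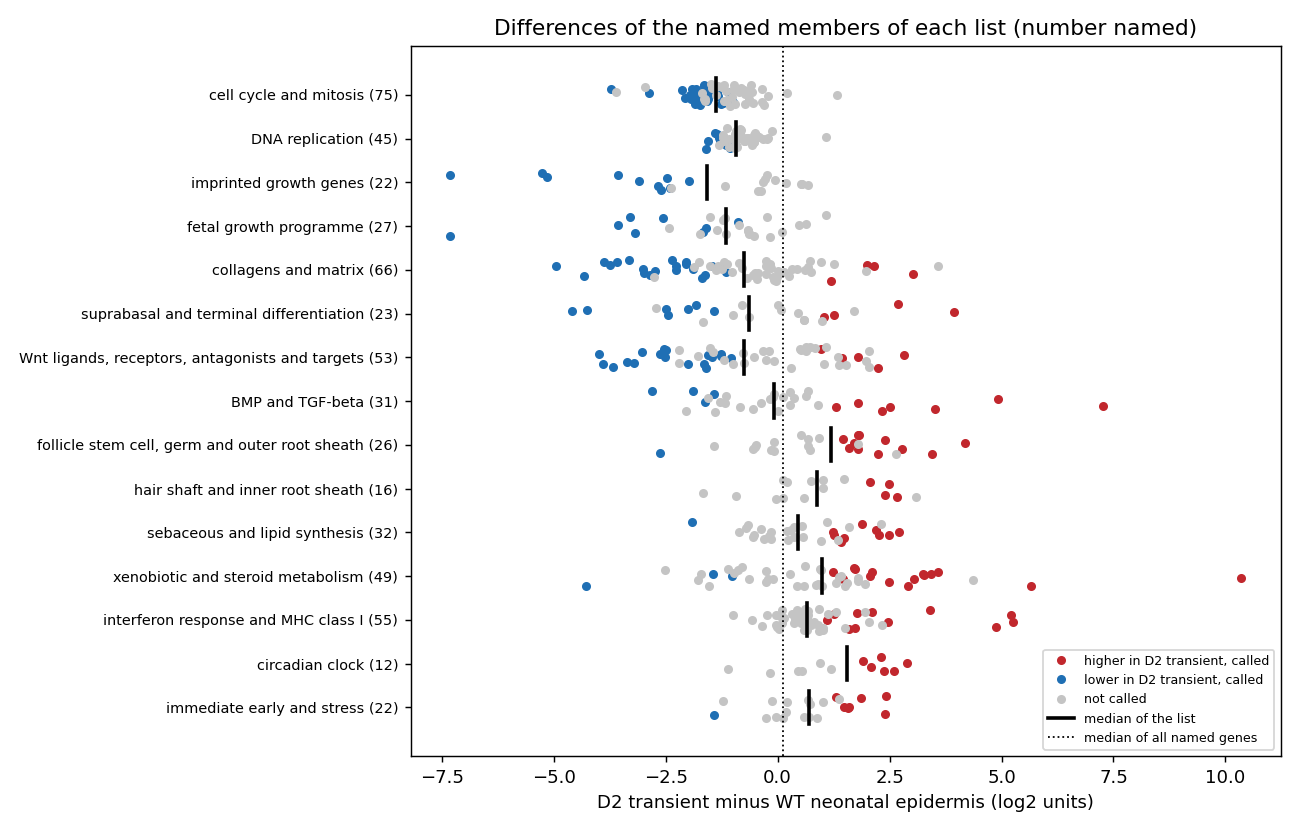
Each point is a named gene, placed by its difference in log2 units, D2 transient minus WT neonatal epidermis (horizontal axis), and rows are gene lists with the number of named members in brackets; red points were called higher and blue ones lower in D2 transient arrays, the bar is the median of the list and the dotted line the median of all named genes (0.12). Among these lists the medians run from -1.57 for imprinted growth genes to 1.54 for the circadian clock.

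Collagens and other matrix genes had 21 of 66 named members called lower (background 9.54%) and 4 higher (background 12.8%), with a median of -0.75. Col3a1, a fibrillar collagen of the dermis, was at 6.80, 6.21 and 5.94 in D2 transient arrays and 11.13, 11.47 and 11.18 in WT neonatal arrays (-4.95 ± 0.41, adjusted p = 0.000581). Col1a2, a chain of collagen I, was at 7.04, 7.17 and 6.32 in D2 transient arrays and 11.07, 11.36 and 11.07 in WT neonatal arrays (-4.32 ± 0.32, adjusted p = 0.000541). Fibroblasts make these genes, and in the neonatal dermal sort Col1a2 was at 12.41 ± 0.11. Vcan, a proteoglycan of growing dermis and dermal papilla, was at 4.80, 3.90 and 5.46 in D2 transient arrays and 8.87, 8.82 and 7.71 in WT neonatal arrays (-3.74 ± 0.52, adjusted p = 0.00526). Of the 21 matrix genes that were lower, 20 stood higher in the neonatal dermal sort than in the neonatal epidermal sort, as did 53 of all 66 members (80.3%) and 48.7% of all named genes. The fibroblast marker list had 10 of 25 named markers called lower (background 9.54%), 1 (Gsn) higher (background 12.8%) and a median of -1.77. Their summed signal, on the linear scale, was 6537 to 7520 in D2 transient arrays and 14197 to 17125 in WT neonatal arrays, against 53210 to 56219 in the neonatal dermal sort. Dcn (decorin), also a fibroblast gene, was at 4.61, 4.38 and 5.84 in D2 transient arrays and 3.80, 4.27 and 4.69 in WT neonatal arrays (0.69, adjusted p = 0.348). Whether dermal RNA in the neonatal sort contributes to the matrix and fibroblast differences was not tested. The lower matrix count stayed between 14 and 20 when any 1 array was left out, the higher one was 1 without neonatal replicate 2, neonatal replicate 3, the telogen arrays or transient replicate 3 and 2 without the sustained arrays or transient replicate 4, and the fibroblast count was 6 without neonatal replicate 2 or the telogen arrays and 5 without neonatal replicate 3.

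Proteases and their inhibitors had 4 of 37 named members called in each direction, close to the shares of all named genes (12.8% higher and 9.54% lower). The higher count was 2 without neonatal replicate 3 or transient replicate 4, and the lower count was 2 without neonatal replicate 2, neonatal replicate 4, the telogen arrays or transient replicate 4. Serpine2, an inhibitor of serine proteases, was lower (-3.15 ± 0.30, adjusted p = 0.000996), while Timp2, an inhibitor of metalloproteases, was higher (1.74 ± 0.26, adjusted p = 0.00684). Among integrins and junction proteins 6 of 31 were called higher (background 12.8%) and 5 lower (background 9.54%). With arrays centred on their median 3 were higher (background 5.9%) and 8 lower (background 13.9%). The higher count was 3 without neonatal replicate 2, the sustained arrays, transient replicate 3 or transient replicate 4, and the lower count was 2 without neonatal replicate 2, the sustained arrays, the telogen arrays or transient replicate 3 and 3 without neonatal replicate 3, neonatal replicate 4 or transient replicate 4. Gjb6, the gap junction protein connexin 30, was at 8.29, 8.48 and 8.14 in D2 transient arrays and 6.39, 5.49 and 6.24 in WT neonatal arrays (2.26 ± 0.31, adjusted p = 0.00532). Cldn8, a tight junction claudin, was at 6.41, 6.97 and 7.68 in D2 transient arrays and 5.04, 4.78 and 5.21 in WT neonatal arrays (2.01 ± 0.33, adjusted p = 0.0103). Cadm3, a cell adhesion molecule, was higher (4.03 ± 0.54, adjusted p = 0.00453). Among those lower were the integrin Itga8, a partner of nephronectin (-3.71 ± 0.46, adjusted p = 0.0032), and N-cadherin, Cdh2 (-3.57 ± 0.62, adjusted p = 0.0119). Itga8 stood at 8.88 ± 0.47 in the neonatal dermal sort and 6.90 ± 0.20 in the epidermal one. Of 29 guidance genes 5 were lower (background 9.54%) and 2 higher (background 12.8%). The secreted semaphorins Sema3b (-3.30 ± 0.45, adjusted p = 0.00502) and Sema3a (-2.45 ± 0.42, adjusted p = 0.0117) were lower. Ntn4, a netrin of basement membranes, was higher (2.35 ± 0.38, adjusted p = 0.00901). With arrays centred on their median neither higher guidance gene kept its call, and Ntn4 then differed by 1.90 (adjusted p = 0.0531). The higher count was 1 without neonatal replicate 2, neonatal replicate 3, neonatal replicate 4, the sustained arrays, the telogen arrays, transient replicate 2 or transient replicate 3, and the lower count was 3 without neonatal replicate 2, neonatal replicate 3 or transient replicate 3.

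Markers of cells other than keratinocytes and fibroblasts also differed. The background for their counts is 9.54% of named genes called lower and 12.8% called higher. Of 18 named macrophage genes 8 were called lower and 1, Lyz1, higher, with a median of -1.60. C1qb, a complement subunit made by macrophages, was at 7.30, 4.90 and 5.61 in D2 transient arrays and 8.67, 8.73 and 9.76 in WT neonatal arrays (-3.12 ± 0.58, adjusted p = 0.0169). The summed macrophage signal was 1558 to 4030 in D2 transient arrays and 4438 to 6151 in WT neonatal arrays, but highest in WT telogen arrays (6461 to 8303). The count was 2 without neonatal replicate 3 or the telogen arrays, 3 without transient replicate 3 and 5 without transient replicate 4. Schwann cell genes had 4 of 8 lower, among them the myelin gene Mbp (-2.36 ± 0.42, adjusted p = 0.0135), and their summed signal was 814 to 844 in D2 transient and 2122 to 2864 in WT neonatal arrays. Of the other 3 probe sets of Mbp, 2 went the opposite way without being called. The Schwann count was 2 without neonatal replicate 2, neonatal replicate 3, neonatal replicate 4, the telogen arrays, transient replicate 2 or transient replicate 3.

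The same background, 9.54% lower and 12.8% higher, holds for the marker counts that follow. Melanocyte genes had 4 of 9 named members lower (summed signal 597 to 928 in D2 transient and 1275 to 1615 in WT neonatal arrays), among them the endothelin receptor Ednrb (-2.68, adjusted p = 0.0253). That count was 0 without neonatal replicate 2, without neonatal replicate 3, without transient replicate 3 and without the telogen arrays, each time with 5 lower at an unadjusted p under 0.05. Of 11 pericyte and smooth muscle genes 2 were lower and 1, Tpm2, higher. The potassium channel Kcnj8 was at 4.10, 1.95 and 2.72 in D2 transient arrays and 6.95, 8.10 and 7.29 in WT neonatal arrays (-4.53 ± 0.60, adjusted p = 0.00445), and Rgs5, a regulator of G protein signalling, differed by -3.01 (adjusted p = 0.0233). The D2 transient arrays of Kcnj8 averaged below the 25th percentile of their group, so the size of its difference is imprecise. Smooth muscle actin, Acta2, differed by -1.01 (adjusted p = 0.204). Rgs5 missed the threshold without neonatal replicate 2 or 3 or transient replicate 2 or 3 (adjusted p = 0.0549 to 0.0735). Of 10 Langerhans and dendritic genes 0 were called by limma at the adjusted threshold, while 1 was higher and 2 were lower at an unadjusted p under 0.05, and their summed signal was 1084 to 3456 in D2 transient and 1530 to 2277 in WT neonatal arrays. H2-Aa, an MHC class II chain, was at 9.55, 8.19 and 7.93 in D2 transient arrays and 8.44, 8.22 and 9.03 in WT neonatal arrays, and the groups overlapped. T cell genes had 1 of 10 called, Cd247, a chain of the T cell receptor complex (4.12, adjusted p = 0.0153), which missed the threshold without neonatal replicate 2 (adjusted p = 0.0503). Of the 10, 5 had a positive and 5 a negative difference (median 0.08), and their summed signal was 317 to 728 in D2 transient and 470 to 799 in WT neonatal arrays. Endothelial markers had 2 of 6 called higher, Plvap and Flt1, and 0 lower, and that count was 0 to 2 when any 1 array was left out. The summed adipocyte markers were 3549 to 3904 in D2 transient and 1662 to 1871 in WT neonatal arrays, with 1 of 6 called higher, 1 lower and a median difference of 0.21. Fabp4, a lipid carrier that sebocytes and other cells also make, was higher (2.06 ± 0.32, adjusted p = 0.00777), and Acsl1, an acyl-CoA synthetase, was lower (-1.91 ± 0.35, adjusted p = 0.015); Acsl1 was at the threshold without neonatal replicate 3 (adjusted p = 0.05).

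**Figure D4:**
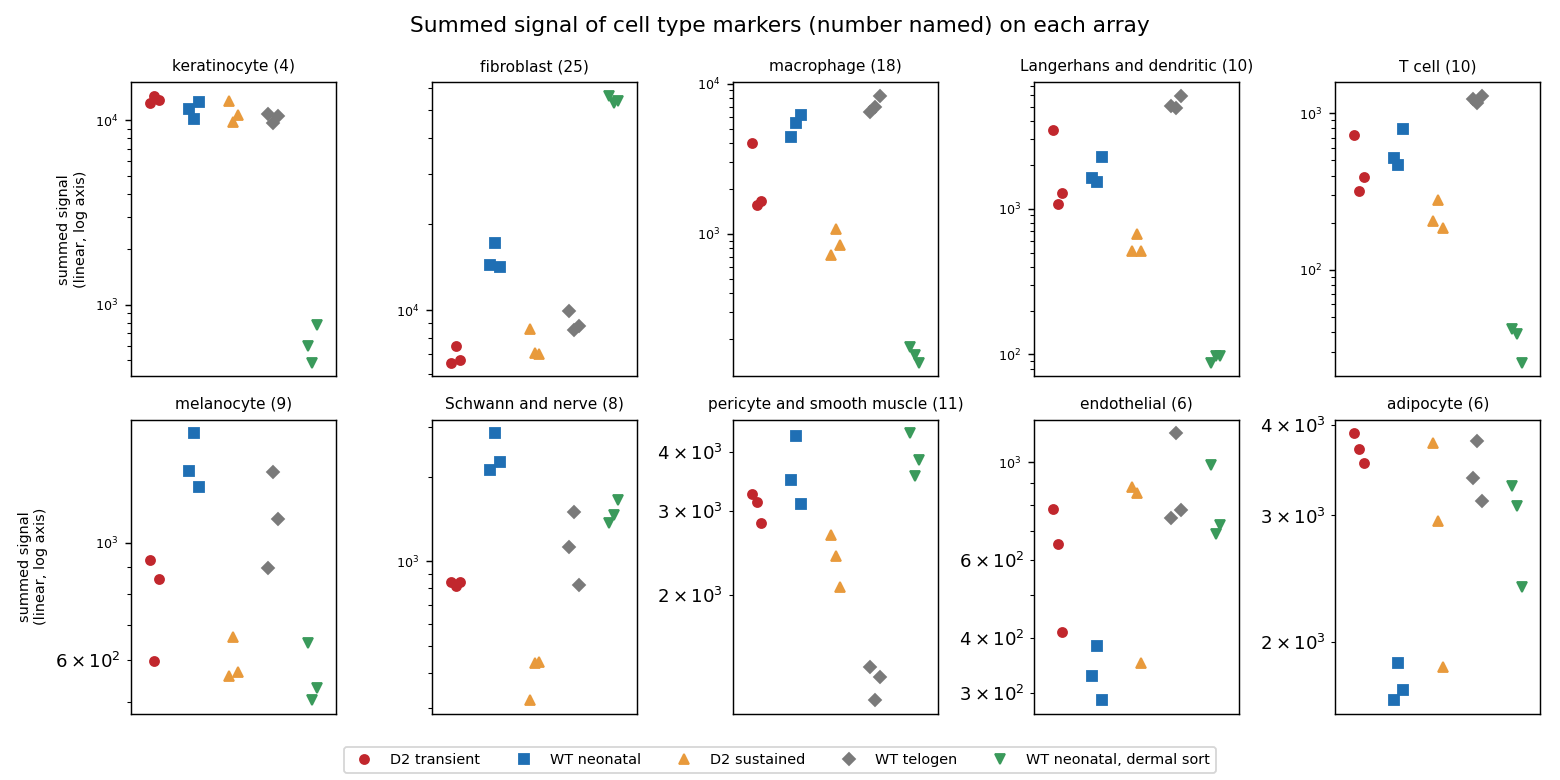
Each panel gives the summed linear signal of the named markers of 1 cell type (number named in brackets) on a log axis, with 1 point per array, for D2 transient, WT neonatal, D2 sustained and WT telogen epidermal sorts and the WT neonatal dermal sort. Keratinocyte markers are at a like level in all epidermal arrays (9694 to 13561), while fibroblast markers are at 6537 to 7520 in D2 transient and 14197 to 17125 in WT neonatal arrays.

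Class I antigen presentation genes were among those higher in D2 transient arrays. Of 55 named genes of the interferon response and MHC class I list 11 were called higher (background 12.8%) and 0 lower, with a median of 0.66. H2-K1, a classical class I heavy chain, was at 11.21, 11.66 and 10.52 in D2 transient arrays and 7.56, 7.49 and 8.16 in WT neonatal arrays (3.39 ± 0.31, adjusted p = 0.000816). Its partner B2m, the light chain of class I molecules, was at 11.86, 12.06 and 12.02 in D2 transient arrays and 10.69, 10.62 and 10.82 in WT neonatal arrays (1.27 ± 0.21, adjusted p = 0.00985). The non-classical H2-Q7 was at 8.87, 9.54 and 7.64 in D2 transient arrays and 2.83, 3.74 and 3.69 in WT neonatal arrays (5.26 ± 0.51, adjusted p = 0.00103). The class I genes are close copies of each other, so probe sets may read several. WT telogen arrays overlapped D2 transient arrays for H2-K1 (11.36, 11.48 and 11.49) and were above them for H2-Q7 (9.99, 10.37 and 9.64), and WT neonatal was the low group. Cxcl9, a chemokine induced by interferon gamma, was at 5.40, 4.08 and 4.10 in D2 transient arrays and -0.60, -1.42 and 0.97 in WT neonatal arrays (4.88 ± 0.56, adjusted p = 0.00219). Its WT neonatal values were near the floor of the scale, so the size of its difference is imprecise. The interferon-stimulated genes Ifit1 (-0.03, adjusted p = 0.989) and Mx1 (0.64, adjusted p = 0.611) did not pass the threshold. The count was 5 without neonatal replicate 3, the telogen arrays or transient replicate 3, and it was 9 after quantile normalization (background 10.2%) and 5 with arrays centred on their median (background 5.9%).

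H2-Q7 and Cxcl9 had the largest called differences of this list, by fitted size, among genes with a window in the promoter table (H2-Q8, with 5.22, has no entry used here). Their windows are shown on the same terms as those above.
H2-Q7, chr17:35438905-35439154, plus strand: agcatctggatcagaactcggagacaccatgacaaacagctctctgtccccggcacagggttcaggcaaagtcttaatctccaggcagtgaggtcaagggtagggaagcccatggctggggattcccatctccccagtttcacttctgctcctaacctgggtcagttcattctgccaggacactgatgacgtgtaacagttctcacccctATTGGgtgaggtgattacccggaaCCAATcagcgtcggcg
Cxcl9, chr5:92328080-92328329, minus strand: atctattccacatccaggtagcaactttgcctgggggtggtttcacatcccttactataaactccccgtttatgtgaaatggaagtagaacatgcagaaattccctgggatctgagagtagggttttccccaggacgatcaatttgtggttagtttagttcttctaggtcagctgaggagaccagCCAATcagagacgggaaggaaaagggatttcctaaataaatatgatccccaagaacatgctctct
CCAAT has 2 matches in H2-Q7 and 1 in Cxcl9, and no interferon-stimulated response element of these letters is in either window. In the list, 14 of 41 named members with a window have this element (34.1%) against 3.04% of all windows, and 3 of the 10 called ones do (30%). CCAAT is in 18 of the 41 (43.9%) and 7 of the 10 (70%).

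Of 44 named chemokines, cytokines and receptors 9 were called higher (background 12.8%) and 3 lower (background 9.54%). Il7, a cytokine for lymphocytes that follicle keratinocytes make, was at 5.52, 5.51 and 6.61 in D2 transient arrays and 2.83, 2.30 and 3.04 in WT neonatal arrays (3.15 ± 0.45, adjusted p = 0.00604). Il20ra, a receptor chain for cytokines of the IL-20 group, was higher (4.90 ± 0.75, adjusted p = 0.00761), and so was the chemokine Ccl8 (3.21 ± 0.48, adjusted p = 0.00684). The scavenger receptor Ackr3 and the cytokine receptor Lifr were lower (-1.53 ± 0.27, adjusted p = 0.0134, and -1.94 ± 0.29, adjusted p = 0.00648). The higher count was 4 to 7 when any 1 array was left out.

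Several clock genes were higher in D2 transient arrays. Of 12 named clock genes 6 were called higher (background 12.8%) and 0 lower, with a median of 1.54. Dbp, a transcription factor driven directly by the clock, was at 9.23, 9.89 and 8.75 in D2 transient arrays and 6.72, 6.92 and 6.42 in WT neonatal arrays (2.60 ± 0.33, adjusted p = 0.00362). Nr1d1, the repressor REV-ERB alpha, was at 7.95, 8.02 and 7.06 in D2 transient arrays and 5.58, 4.64 and 5.89 in WT neonatal arrays (2.31 ± 0.43, adjusted p = 0.0157). The groups did not overlap, and the WT telogen arrays averaged higher still (10.16 ± 0.38 for Dbp and 8.83 ± 0.20 for Nr1d1). Of the core activators, Clock differed by 0.96 (adjusted p = 0.115) and Arntl by 0.46 (adjusted p = 0.696). Times of day are not given in the labels, and their part was not tested. Nr1d1 missed the threshold without transient replicate 3 (adjusted p = 0.051), and 3 clock genes were called without that array. With arrays centred on their median 3 were called (background 5.9% higher). Of 22 named immediate early and stress genes 7 were called higher (background 12.8%) and 1 lower (background 9.54%), with a median of 0.71. Fos, a subunit of AP-1, was at 11.18, 11.80 and 11.99 in D2 transient arrays and 9.18, 9.61 and 8.88 in WT neonatal arrays (2.43 ± 0.30, adjusted p = 0.00294). Fosb, another AP-1 subunit, was also higher (2.39 ± 0.40, adjusted p = 0.011), as was Zfp36, which destabilises mRNA (1.60 ± 0.24, adjusted p = 0.00677). As background, these genes also respond to tissue handling, whose part was not tested. Fosl2, of the same family as Fos, was the member that was lower (-1.41 ± 0.26, adjusted p = 0.0171), and missed the threshold without neonatal replicate 3 (adjusted p = 0.0571). With arrays centred on their median the higher count was 2 (background 5.9%).

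Enzymes of xenobiotic and steroid metabolism had 15 of 49 named members called higher (background 12.8%) and 3 lower (background 9.54%), with a median of 1.00. The higher count was 12 to 15 when any 1 array was left out and 10 with arrays centred on their median (background 5.9%). The lower count was 1 without neonatal replicate 2, neonatal replicate 4, the sustained arrays or transient replicate 2. It was 0 without neonatal replicate 3 (limma), where 6 were lower at an unadjusted p under 0.05. After Akr1c18, Ces1d, a carboxylesterase, was at 7.63, 8.33 and 7.96 in D2 transient arrays and 1.54, 2.29 and 3.13 in WT neonatal arrays (5.65 ± 0.48, adjusted p = 0.000581). Its WT neonatal values were below the 25th percentiles of their arrays, so the size of its difference is imprecise. Cyp1b1, which oxidises estrogens and retinoids, was at 9.96, 10.25 and 8.99 in D2 transient arrays and 6.48, 6.69 and 6.27 in WT neonatal arrays (3.26 ± 0.32, adjusted p = 0.00115). Lrat, which makes retinyl esters, was at 6.15, 6.30 and 6.94 in D2 transient arrays and 2.52, 3.59 and 3.43 in WT neonatal arrays (3.28 ± 0.54, adjusted p = 0.0101). Lrat stood higher in D2 transient arrays than in WT telogen arrays (3.35, 5.70 and 4.27), while Ces1d did not (8.60, 9.22 and 9.45). Cyp2b19, a keratinocyte epoxygenase, was higher (3.59 ± 0.52, adjusted p = 0.00616). Ahr, the receptor for dioxin-like ligands, was lower (-1.44 ± 0.27, adjusted p = 0.016), and missed the threshold without neonatal replicate 3 (adjusted p = 0.0548).

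Of 32 named genes of sebaceous and lipid synthesis 9 were called higher (background 12.8%) and 1 lower (background 9.54%), with a median of 0.46. Scd1, the stearoyl-CoA desaturase of sebocytes, was at 11.03, 11.03 and 10.60 in D2 transient arrays and 8.63, 8.79 and 8.47 in WT neonatal arrays (2.26 ± 0.23, adjusted p = 0.0014). Insig2, which retains the sterol sensor, was higher (2.49 ± 0.25, adjusted p = 0.00119), as was Mgst1, a microsomal glutathione transferase (2.20 ± 0.36, adjusted p = 0.0094). Sqle, an enzyme of sterol synthesis, differed by -0.55 (adjusted p = 0.288). The higher count was 5 without neonatal replicate 3 or transient replicate 3, and 4 with arrays centred on their median (background 5.9%).

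Transcription factors of skin and follicle had 10 of 71 named members called higher (background 12.8%) and 9 lower (background 9.54%), with a median of 0.30. Both counts are close to these shares of all named genes. Foxq1, needed for the medulla of the hair shaft, was at 9.15, 8.72 and 9.43 in D2 transient arrays and 4.33, 5.56 and 5.98 in WT neonatal arrays (3.81 ± 0.40, adjusted p = 0.00154). Satb1, a chromatin organiser of epidermal progenitors, was at 5.42, 5.81 and 5.48 in D2 transient arrays and 8.86, 9.18 and 8.68 in WT neonatal arrays (-3.34 ± 0.33, adjusted p = 0.00115). Klf5, a factor of proliferating basal keratinocytes, was at 7.03, 6.93 and 6.09 in D2 transient arrays and 9.21, 9.34 and 9.26 in WT neonatal arrays (-2.59 ± 0.28, adjusted p = 0.00158). The WT neonatal arrays were apart from the D2 transient arrays in each of these, and WT telogen arrays lay nearer to D2 transient for Foxq1 (8.74 ± 0.28), Satb1 (6.47 ± 0.41) and Klf5 (7.63 ± 0.23). Zeb2, a transcriptional repressor made in mesenchymal and pigment cells, was lower (-2.92 ± 0.31, adjusted p = 0.00166) and stood at 10.81 ± 0.25 in the neonatal dermal sort. Hoxa9, of the HOX positional genes, was higher (2.14 ± 0.41, adjusted p = 0.0182), and missed the threshold without neonatal replicate 2 (adjusted p = 0.0672). With arrays centred on their median 3 members of the list were higher (background 5.9%) and 10 lower (background 13.9%), with a median of -0.16. The higher count was 5 without neonatal replicate 2 or transient replicate 3, 6 without neonatal replicate 3 or transient replicate 4 and 4 without the telogen arrays, and the lower count was 5 without neonatal replicate 2 or transient replicate 3.

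The WT telogen levels were set beside these differences. For 471 of the 585 named genes that were higher, the mean of the WT telogen arrays was nearer to D2 transient than to WT neonatal arrays, and for 331 of the 435 that were lower. For the other 114 and 104 genes WT telogen was nearer to WT neonatal. No test was made between telogen arrays and another group, so these are counts of levels only. The share over all named genes is not given here, and some names come from the authors' comparisons with telogen. The counts are therefore not to be read as a trait of the called genes.

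GFP+ dermal fibroblasts of the same D2 transient and WT neonatal states were also sorted, 3 arrays each, which allows the epidermal difference to be tested against the dermal one in a fit of all 24 arrays. This interaction was called for 1963 probe sets (4.36%), 1065 positive (2.36%) and 898 negative (1.99%), and for 925 of 4560 named genes (20.3%), 430 with a more positive difference in epidermis (9.43%) and 495 with a more negative one (10.9%). Of the 925, 346 were also called within the epidermis. In the cell cycle list 36 of 75 members had a called interaction, all positive: the dermal difference was more negative, and 66 of 75 were called lower in D2 transient dermis (15.8% of named genes were). In the interferon list 23 of 55 had a called interaction, all negative, and 47 of 55 were called higher in D2 transient dermis (21.8% of named genes were). Matrix genes had 26 negative and 4 positive interactions among 66. In the sebaceous and lipid list 14 of 32 were positive and 0 negative.

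Egfl6, a matrix protein of the follicle's basement membrane, had a positive interaction. In epidermis it was at 5.93, 6.69 and 6.64 in D2 transient arrays and 3.85, 4.03 and 4.95 in WT neonatal arrays (2.15 ± 0.38, adjusted p = 0.0134), while D2 transient dermal arrays were at -0.08, 2.15 and 1.44 and WT neonatal dermal arrays at 10.09, 10.01 and 10.28 (-8.96 ± 0.51, adjusted p = 4.62e-05). The interaction was 11.10 ± 0.64, adjusted p = 5.34e-08. Ptprz1, a receptor phosphatase of Schwann and other neural crest cells, had a negative interaction. It was at 4.41, 4.16 and 5.17 in D2 transient arrays and 7.59, 7.80 and 7.91 in WT neonatal arrays (-3.19 ± 0.58, adjusted p = 0.0151), against 5.66, 7.62 and 7.81 in D2 transient and 2.47, 0.04 and 3.23 in WT neonatal dermal arrays, and the interaction was -8.31 ± 1.23, adjusted p = 0.000565. The D2 transient dermal arrays of Egfl6 and a WT neonatal dermal array of Ptprz1 were near the floor of the scale, so both interactions have a direction but an imprecise size. Egfl6 missed the threshold in epidermis without neonatal replicate 2 (adjusted p = 0.0532).

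**Figure D5:**
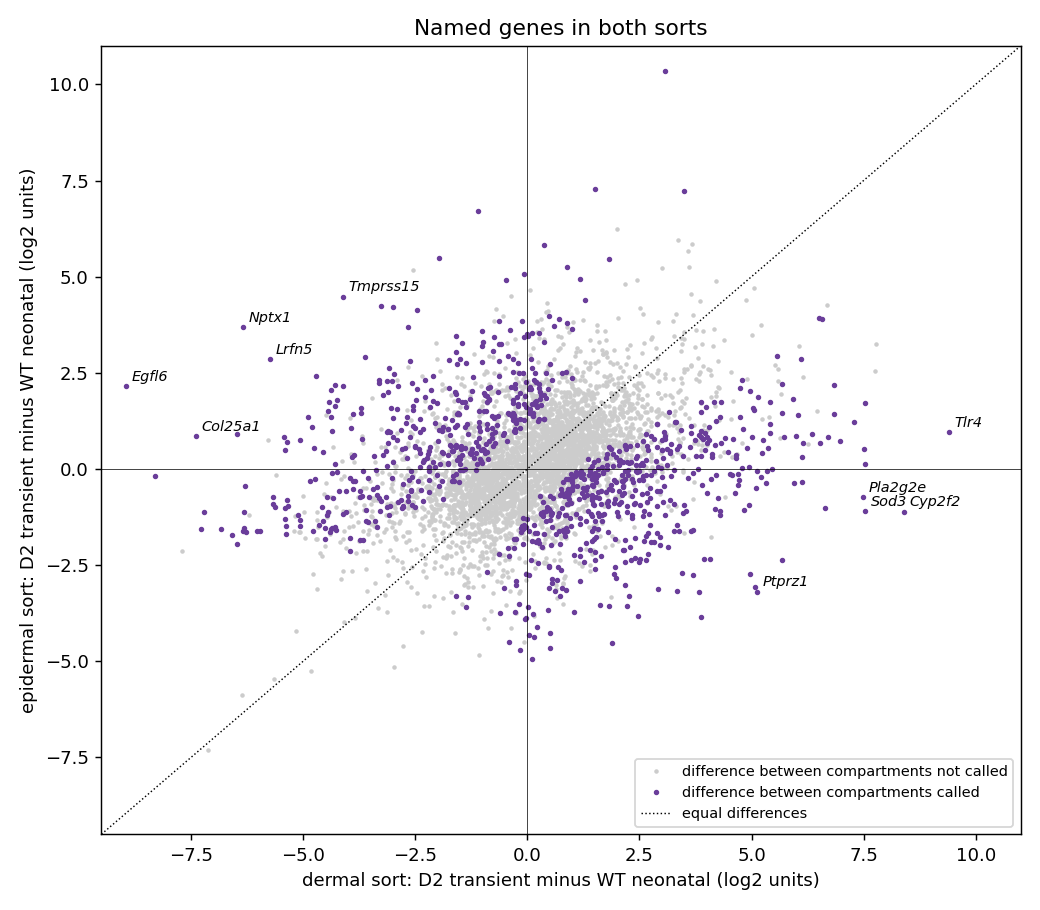
Each point is a named gene, with the D2 transient minus WT neonatal difference in log2 units in the dermal sort on the horizontal axis and in the epidermal sort on the vertical axis; purple points have a called difference between the sorts (925 of 4560) and the dotted line marks equal differences. The 10 labelled genes have the largest fitted interactions among those called, 5 in each direction, and sizes are imprecise where a group is near the floor of the scale.

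The authors' deposited table of regulated epidermal genes lists 1689 probe sets for this pair of groups, 680 higher and 1009 lower in D2 transient arrays. Of these, 1161 were also called here, which is 68.7% of the authors' list and 43.4% of the 2676 calls, and all 1689 have the same sign in both. That list was drawn from these same arrays, so the shared signs and the overlap are not independent evidence. The authors' list leans to lower, the calls here to higher.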

How the data were processed

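RNA of sorted cells was amplified (WT-Ovation Pico) and hybridised to 1 Affymetrix array per mouse and sort, per the labels' protocols. The deposited values are log2 signals. RMA and MAS5 appear in the submitters' processing notes, with no role or version; from the values, each array's linear mean trimmed by 2% at each end is 100.02 to 100.03. The authors' deposited tables of regulated genes hold ratios (linear folds) with directions, per the file headers, and gave the gene names: 6480 of 7261 listed probe sets had 1 gene, and 662 symbols were updated by Entrez identifier.

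The 12 epidermal arrays were fitted by group means with limma 3.58.1 (R 4.3.3, default empirical Bayes), contrasting D2 transient with WT neonatal over 45037 probe sets after leaving out 64 controls; the difference between sorts used all 24 arrays. Calls have a Benjamini-Hochberg adjusted p under 0.05. The scripts were tested on simulated data. The probe set with the highest epidermal mean stood for its gene. Array intensity gives no counts, so the number of arrays limits the precision, and p-values of the epidermal fit measure the spread between arrays of different mice. In the fit of all 24 arrays, most dermal arrays share a mouse number with an epidermal array of their state. The main interaction fit treated these arrays as independent.

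The genes named are up to 4 called members per list and direction by size, the 12 largest called differences per direction whose arrays do not overlap and whose higher group averages at least 6, the transgene and gate genes, the 5 largest interactions per direction, and markers and members without a call for their values; some genes are not reported here. Apcdd1, Axin2, B2m, Ccna2, Cyp1b1, Krt10, Lrat, Wnt3 and Wnt4 fall outside this rule and were chosen after their values were seen. The groups compared and the lists were chosen with earlier results of these data known. Same-numbered arrays come from different mice by genotype, so the numbers do not pair mice. Their deviations correlate at 0.16, -0.01 and 0.25, and those of arrays with other numbers at -0.26 to 0.16. So few values cannot show whether arrays of the same number shared a batch. Alternatives were quantile normalization, median centring, leaving out probe sets averaging under 5 in every epidermal group, an offset of 16, other array sets, array weights, trended robust Bayes, a replicate block and each array left out.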

Additional observations from a re-analysis of the deposited data

Results flagged for a closer look

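The difference between D2 transient and WT neonatal arrays was itself different in the epidermal and the dermal sort for 925 named genes, and the 5 largest in each direction were singled out (limma interaction over 24 arrays, epidermal difference minus dermal difference, n = 3 arrays per group). Positive interactions were found for Egfl6 (11.10 ± 0.64, adjusted p = 5.34e-08), Nptx1, a neuronal pentraxin (10.02 ± 1.16, adjusted p = 5.1e-05), Lrfn5, a synaptic adhesion protein (8.60 ± 0.96, adjusted p = 3.49e-05), Tmprss15, enteropeptidase (8.59 ± 1.86, adjusted p = 0.0116), and Col25a1, a membrane collagen (8.23 ± 1.19, adjusted p = 0.000442). In the epidermal sort their differences were 2.15, 3.69, 2.86, 4.48 and 0.85 in the same order of genes. Those of Tmprss15 and Col25a1 were not called in that sort. Nptx1, for example, was at -0.34, -0.11 and 0.82 in D2 transient and 6.24, 6.39 and 6.74 in WT neonatal dermal arrays.

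Negative interactions were found for Cyp2f2, a cytochrome P450 (-9.52 ± 1.17, adjusted p = 9.59e-05), Sod3, the extracellular superoxide dismutase (-8.64 ± 1.56, adjusted p = 0.00293), Tlr4, the receptor for bacterial lipopolysaccharide (-8.44 ± 1.19, adjusted p = 0.000372), Ptprz1 (-8.31 ± 1.23, adjusted p = 0.000565), and Pla2g2e, a secreted phospholipase (-8.24 ± 1.11, adjusted p = 0.000253). Their epidermal differences were -1.12, -1.10, 0.96, -3.19 and -0.74, and only that of Ptprz1 was called. Cyp2f2 was at 10.51, 10.31 and 9.44 in D2 transient and 2.20, 2.92 and -0.06 in WT neonatal dermal arrays. The 10 genes were picked for the fitted size of this difference, which is imprecise where a group is near the floor of the scale.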

How the results depend on the processing

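The number of probe sets called between D2 transient and WT neonatal epidermis, 2676, was 2103 after quantile normalization and 2207 after median centring. It was 4831 when dim probe sets were dropped, 4319 with all 24 arrays, 5005 with trended robust Bayes and 4729 with an offset of 16. It was 6 with only the 6 arrays compared and 0 with the replicate block on those arrays (limma; 9285 had an unadjusted p under 0.05 with the block), where few residual degrees of freedom remain. When any 1 array was left out it was 1051 to 2477, lowest without neonatal replicate 2. Chosen after seeing the data, it was 1084 without the telogen and 1685 without the sustained arrays. The interaction count, 1963, was 2075 with mice as a replicate block and 1435 to 2063 when any 1 array was left out.

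Of 162 called genes named by the rule none changed direction under any other array set, scaling, weighting or Bayes setting, and 88 were called without each single array. The call was lost for 34 with arrays centred on their median, 18 after quantile normalization, 21 with all 24 arrays, 158 with only the 6 arrays compared, 162 with the replicate block, 56 without the telogen and 31 without the sustained arrays, and 30 to 62 when any 1 array was left out, most without neonatal replicate 2. Of 130 other probe sets of these genes 78 were called in the same direction and 49 had that direction uncalled, and the other 3 went the opposite way, uncalled, for Cux1 (-0.14) and Mbp (0.18 and 0.34). Quantities near the floor of the array limit the size of 131 called differences.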
